A study of Mus musculus with 6 samples.

Results

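The genes described here encode the glutathione, thioredoxin and antioxidant systems of DR4 mouse embryonic fibroblasts. Members were taken by gene symbol: glutathione transferases (Gst families a, m, p, t, o and z), microsomal transferases (Mgst), glutathione peroxidases (Gpx), peroxiredoxins (Prdx), thioredoxins (Txn), thioredoxin reductases (Txnrd), superoxide dismutases (Sod) and 13 further named genes, Nqo1, Hmox1, Hmox2, Gclc, Gclm, Gss, Gsr, Cat, Srxn1, Sqstm1, Nfe2l1, Nfe2l2 and Keap1. The rule found 54 genes of the 18193 with a single symbol, measured by 97 probe sets, of which 84 were on the array type MOE430A and 13 on MOE430B. A probe set is the group of short oligonucleotides that measures a transcript on an Affymetrix array. Of the 54 genes, 52 had a probe set on MOE430A, 10 on MOE430B and 8 on both. Probe sets annotated with several symbols are not named, so Prdx1 is not among the members. Prdx2, Prdx3 and Prdx4 are the only peroxiredoxins that are, so the family is not covered in full.

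DR4 cells are fibroblasts used as a feeder layer beneath embryonic stem cells, and the study profiled them because some stay among the J1, R1 and V6.5 stem cells at harvest. Per the labels, the cells came from day 15 embryos and grew in D-MEM with 15% serum, LIF and beta-mercaptoethanol, a reducing agent, on 0.1% gelatin at 37 C and 5% CO2. All 3 RNA replicates shared this description, with no treated or wild-type group, and each was hybridized to 1 array of each type, 6 samples in all. RNA of replicate 1 was taken from 12x10e6 cells (the labels' notation) and supplied at 2.4 ug/ul, that of replicates 2 and 3 from 3x10e6 cells and supplied at 3.0 ug/ul, and the labels record no other difference among arrays of a type. Whether the replicates were grown separately is not stated, so p-values here hold only the spread of these samples, which may be technical.

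Glutathione is a small cysteine-containing peptide that cells use as a soluble reductant and as a tag for reactive compounds. The thioredoxin system runs beside it, with thioredoxin reducing protein disulfides and peroxiredoxins and being recharged by a reductase that draws on NADPH. In fibroblasts, many genes of both systems are induced by the transcription factor NFE2L2 (NRF2), which KEAP1 marks for degradation until oxidants or electrophiles modify it, and NFE2L2 binds the antioxidant response element in their promoters.

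Promoters of 4 members are shown because every tested MOE430A probe set of these genes was brightest in replicate 1 and their promoters hold the core letters of that element, TGANNNNGC on either strand, marked by capitals. Each line runs 5′ to 3′ on the strand of the gene and ends 1 base before its RefSeq start site on GRCm38.p6.
Gclm, chr3:122245408-122245556, plus strand: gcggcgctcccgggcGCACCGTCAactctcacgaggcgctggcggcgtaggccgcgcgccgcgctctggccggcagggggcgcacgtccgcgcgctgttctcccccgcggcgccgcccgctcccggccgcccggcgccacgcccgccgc
Gstp1, chr19:4037913-4038001, minus strand: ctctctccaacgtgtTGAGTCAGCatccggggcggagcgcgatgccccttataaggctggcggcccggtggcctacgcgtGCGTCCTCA
Srxn1, chr2:152105351-152105523, plus strand: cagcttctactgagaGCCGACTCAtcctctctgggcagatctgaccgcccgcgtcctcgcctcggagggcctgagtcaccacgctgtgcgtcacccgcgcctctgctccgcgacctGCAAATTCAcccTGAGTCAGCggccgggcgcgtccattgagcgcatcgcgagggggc
Txnrd1, chr10:82859099-82859205, plus strand: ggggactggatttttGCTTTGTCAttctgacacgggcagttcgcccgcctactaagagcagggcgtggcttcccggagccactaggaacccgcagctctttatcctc

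These letters are common. Across the 250 bases before the start site, 35.2% of 32851 RefSeq promoters held TGANNNNGC, and of 68 promoters matched to 48 members, 31 did (45.6%). The stricter TGACNNNGC, which is contained in the core pattern, was found in 10.2% of all promoters and in 8 of the 68 (11.8%). The exact sequence TGAGTCAGC was rarer, in 114 of all promoters (0.347%), and 2 members held it, Srxn1 at 45 bases and Gstp1 at 74 bases before the start. Gclm had a match to the stricter pattern 134 bases before its start, and Txnrd1 had one 92 bases before the start site shown. Of 15 genes whose tested MOE430A probe sets were all brightest in replicate 1, 12 had a promoter in the table and 5 of these held the core letters, the other one being Nfe2l2. Of all 48 matched members 23 held them. Besides Gclm, Nfe2l2 and Txnrd1, the stricter pattern was held by Gstm5, Gstm7 and Mgst1, whose tested probe sets were lowest in replicate 1. A match describes letters in this window and not a bound site, and promoters of one gene overlap where start sites lie close together.

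Values below are MAS5 signal intensities on MOE430A unless MOE430B is named, for the probe set of the gene with the highest mean signal. No probe set's signal is set against another's, since hybridization brightness varies with the oligonucleotides. The median signal of each array served as a floor, at 689, 685 and 734 on the MOE430A arrays of replicates 1, 2 and 3 and at 849, 917 and 907 on MOE430B. All 10 fibroblast markers were above the floor, beside 1 of 8 stem cell, 3 of 6 macrophage, 1 of 5 endothelium, 2 of 5 epithelium and 1 of 5 liver markers and 0 of 3 erythroid ones. Pou5f1, Nanog and Sox2, which define stem cells, read 15.6 to 265, and Zfp42, Dppa5a and Tdgf1 read 14.9 to 504. Utf1 was higher, at 694, 1259 and 498 in replicates 1, 2 and 3. Esrrb, the 1 above the floor, was so through a probe set other than its brightest on MOE430A, which read 776, 823 and 564. On MOE430A, the 3' to 5' signal ratio of Gapdh, a measure of RNA integrity, was 1.27, 1.16 and 0.846 in replicates 1, 2 and 3, and that of Actb was 1.05, 1.17 and 1.09. The MOE430A arrays of replicates 1 and 2 were scanned on one day after the same fluidics station, and that of replicate 3 on another day after another station. The MOE430B arrays share a scan day, but replicate 1 was run on one station and replicates 2 and 3 on another, so on MOE430B station and replicate 1 cannot be told apart. In bulk RNA, fewer cells of a type and less RNA per cell cannot be told apart, and with 3 arrays of a type all values have limited precision.

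Most of these genes were above the floor in the fibroblasts. On MOE430A, 54 of the 84 member probe sets (64.3%) lay above the floor on all 3 arrays, against 42.4% of all probe sets, and on MOE430B 3 of 13 did (23.1%), against 37.2%. By genes, 39 of 54 were above it through at least 1 probe set (72.2%), against 54.7% of all genes with 1 symbol. The families differed in which members appeared. All 4 genes of glutathione synthesis and recycling, all 4 peroxiredoxin and sulfiredoxin genes, all 4 genes of superoxide dismutases and catalase, all 3 of haem oxygenases and Nqo1, and Nfe2l1, Nfe2l2, Keap1 and Sqstm1 were above the floor. By contrast 10 of 19 glutathione transferases, 2 of 3 microsomal transferases, 5 of 8 glutathione peroxidases and 3 of 5 thioredoxin and reductase genes were. The plot of signals by gene shows the 39 genes by role.

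**Figure D1:**
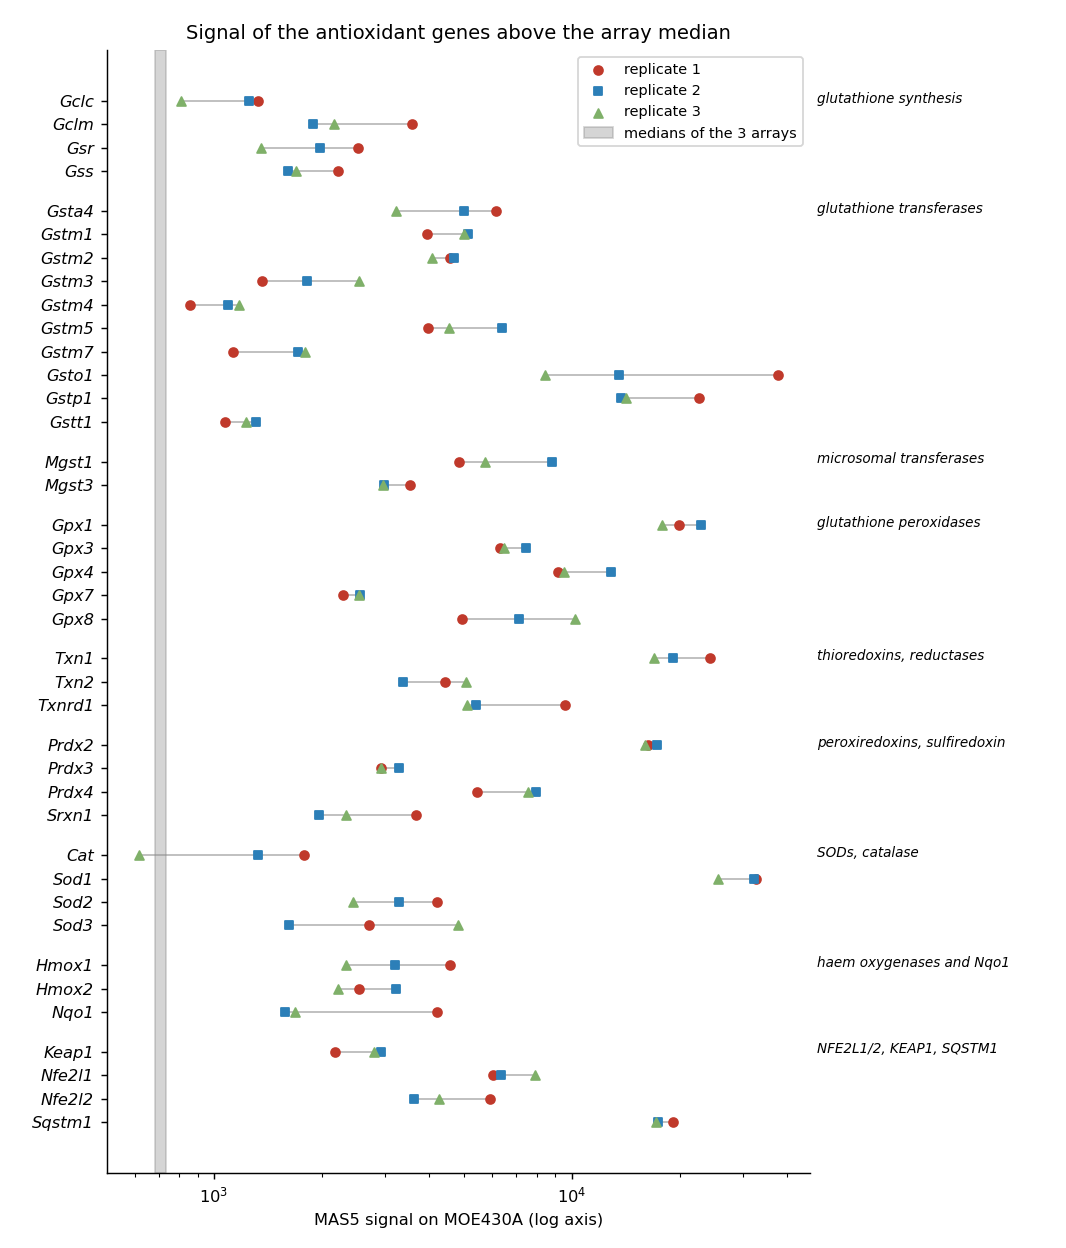
Signal intensity on MOE430A (log axis) of the 39 antioxidant genes above the array median, by role, with 1 symbol per replicate and a grey line over their range. The grey band covers the medians of the 3 arrays, 684.9 to 734.2. Gsto1 has the widest range, 37719 in replicate 1 against 13533 and 8440 in replicates 2 and 3, and Cat is drawn by its brightest probe set, which lies below the median in replicate 3.

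Glutathione is built in a pair of steps. Gclc and Gclm encode the catalytic and modifier subunits of glutamate-cysteine ligase, the rate-limiting enzyme, and Gss encodes glutathione synthetase, which completes the peptide. Gclc had signals of 1329 in replicate 1 and 1249 and 808 in replicates 2 and 3. Gclm had 3582 in replicate 1, against 1888 and 2164, and a separate Gclm probe set on MOE430B read 2074, against 725 and 1058. Replicate 1 was highest for Gclm on both array types, but neither difference passed: the log2 difference, replicate 1 minus the mean of replicates 2 and 3, was 0.82 on MOE430A (limma, SE 0.37, adjusted p = 0.533) and 1.23 on MOE430B (SE 0.42, adjusted p = 0.670). The MOE430B probe set of Gclm entered the test only through replicate 1, since replicates 2 and 3 averaged under their mean floor. Gss had 2216 in replicate 1, against 1613 and 1698, and on MOE430B 7710, against 4663 and 3775, so replicate 1 was again the highest on both types without passing the test. Glutathione reductase Gsr, which returns oxidized glutathione to its reduced form using NADPH, had 2530 in replicate 1, against 1974 and 1349 in replicates 2 and 3.

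Glutathione transferases couple glutathione to electrophilic compounds, and 19 genes were measured. The pi-class Gstp1, an abundant enzyme of many cultured cells, read 22606 in replicate 1, against 13697 and 14128 in replicates 2 and 3. The alpha-class Gsta4, which conjugates the lipid peroxidation product hydroxynonenal, had 6151, against 4982 and 3226. Both were highest in replicate 1 and neither was called (adjusted p = 0.655 and 0.764, limma).

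The omega-class Gsto1, a thioltransferase that also reduces dehydroascorbate, was higher in replicate 1 than in replicates 2 and 3, and was called. Its brighter probe set read 37719 in replicate 1, against 13533 and 8440, which is 3.53-fold above their geometric mean. A second Gsto1 probe set read 10785, against 3878 and 2235, or 3.66-fold. Replicate 1 stood above both other arrays in either probe set, and replicate 3 was the lowest. The log2 differences were 1.82 (SE 0.38, adjusted p = 0.0191) and 1.87 (SE 0.39, adjusted p = 0.0173) by limma, which compares 1 array with 2. With quantile normalization the differences were 1.83 and 1.84 but the adjusted p-values 0.403 and 0.465, and with no filter on low signals 0.790 and 0.800, so the calls rest on these choices. Gsto2, its neighbour on the chromosome in GRCm38.p6, read 889.9 on MOE430B in replicate 1, against 544 and 666, and was not above the floor.

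The mu class lies in 1 cluster, in the order Gstm5, Gstm7, Gstm6, Gstm3, Gstm2, Gstm1 and Gstm4 in GRCm38.p6, and 6 of these 7 neighbours were above the floor. Gstm1, the widely expressed member, read 3941 in replicate 1, against 5126 and 4990 in replicates 2 and 3. Gstm5 had 3952, against 6359.8 and 4549, and Gstm2 had 4574, against 4670.0 and 4053. Gstm3 had 1362, against 1816 and 2545, Gstm4 855, against 1091 and 1177, and Gstm7 1129, against 1715 and 1797. Replicate 1 was the lowest array for Gstm1, Gstm3, Gstm4, Gstm5 and Gstm7, the side opposite to Gsto1, Gstp1 and Gsta4, and no log2 difference of these 5 passed (-0.36 for Gstm1, -0.65 for Gstm3, -0.40 for Gstm4, -0.44 for Gstm5 and -0.63 for Gstm7, adjusted p of 0.725 and above, limma). The theta-class Gstt1 had 1072 in replicate 1, against 1311 and 1231. Mu genes are close copies of each other, so a probe set may read more than 1 of them, and the 4 Gstm1 probe sets disagreed: 1 was highest in replicate 1, 2 were lowest there and 1 lay between.

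Members not above the floor were Gsta2 (213, 253 and 214 in replicates 1, 2 and 3), Gsta3, Gstm6, Gstp3, Gstt2, Gstt3, Gstz1 and, on MOE430B, Gsto2 and Gstt4. Their highest reading on MOE430A was 734 for Gstt3 in replicate 3, just under that array's median. Gstt3, Gstt1, Gstt4 and Gstt2 are neighbours in GRCm38.p6, and of this theta-class run Gstt1 alone was above the floor.

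Of the microsomal transferases, membrane enzymes that act on lipid hydroperoxides and electrophiles, Mgst1 had 4852 in replicate 1, against 8816 and 5717 in replicates 2 and 3. Mgst3 had 3535, against 2979 and 2961. The first was lowest in replicate 1 and the second highest, by log2 differences of -0.55 and 0.25 that did not pass (SE 0.38 and 0.37, limma adjusted p = 0.803 and 0.961). Mgst2, at 659, 662 and 763 in replicates 1, 2 and 3, exceeded the floor on 1 array.

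Glutathione peroxidases reduce hydrogen peroxide and lipid peroxides with glutathione. The cytosolic enzyme Gpx1 read 19989 in replicate 1, against 22906 and 17809 in replicates 2 and 3. Gpx4, which reduces phospholipid hydroperoxides in membranes and protects against ferroptosis, had 9119, against 12847 and 9535, and the secreted Gpx3 had 6283, against 7432 and 6443. Replicate 2 was the highest in each of these probe sets. A second Gpx4 probe set above the floor read 5940 in replicate 1, against 5655 and 3797, and was highest in replicate 1. The endoplasmic reticulum peroxidases were Gpx7, at 2297 against 2557 and 2547, and Gpx8, at 4947 against 7137 and 10179. Gpx8 was lowest in replicate 1 by a log2 difference of -0.78 (SE 0.38), which had an unadjusted p of 0.0467 and an adjusted p of 0.604 by limma. Gpx2, Gpx5 and Gpx6, expressed in gut, epididymis and olfactory tissue, read 92.9 to 588 on all arrays and were not above the floor.

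Of the thioredoxins, the cytosolic Txn1 had 24256 in replicate 1, against 19187 and 16947 in replicates 2 and 3. Its mitochondrial counterpart Txn2 had 4431, against 3380 and 5066. Txn1 was highest in replicate 1 and Txn2 lay between the other arrays. Thioredoxin reductase Txnrd1, the cytosolic selenoenzyme that recharges thioredoxin, had 9588 in replicate 1, against 5384 and 5080 in its brightest probe set (log2 difference 0.87, SE 0.37, adjusted p = 0.464, limma).

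A dimmer Txnrd1 probe set also passed the threshold. It read 3121 in replicate 1, against 243 and 1482 in replicates 2 and 3, with a log2 difference of 2.33 (SE 0.56, adjusted p = 0.0445, limma). Replicates 2 and 3 averaged under their mean floor on the log2 scale, so it entered the test only through replicate 1, where it was high, and its call is not independent of that filter. Replicate 2 lay below its array's floor, and with that array set at its floor replicate 1 was at least 3.10-fold above the geometric mean of replicates 2 and 3. Replicate 1 exceeded replicate 3 by 1.07 on the log2 scale, and the reading of replicate 2 is below its floor and gives only a bound. The adjusted p was 0.0591 with a pseudocount of 1 in place of 16, 0.696 with quantile normalization and 0.978 with no filter. A further Txnrd1 probe set read 975, against 416 and 656. Txnrd2, the mitochondrial reductase, and Txnrd3, known from testis, were not above the floor, with Txnrd2 at 540.2, 692 and 697 and Txnrd3 at 731, 948 and 676 in replicates 1, 2 and 3.

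Peroxiredoxins are thiol peroxidases that thioredoxin reduces. Prdx2, of the cytosol, read 16326 in replicate 1, against 17241 and 15998 in replicates 2 and 3, and Prdx3, of mitochondria, had 2932, against 3284 and 2933. Both were among the 5 member probe sets with the least spread, with an SD of 0.06 and 0.09 on the log2 scale (n = 3). Prdx4, of the endoplasmic reticulum, had 5446, against 7924 and 7556, and was lowest in replicate 1. Sulfiredoxin Srxn1 reverses the overoxidation of peroxiredoxins. Its 3 probe sets above the floor read 3672 in replicate 1, against 1969 and 2338, then 2997, against 1667 and 1530.1, and 2049, against 1318 and 1154. Replicate 1 was highest in each of them, and the differences of 0.77, 0.90 and 0.73 on the log2 scale had adjusted p-values of 0.599, 0.429 and 0.642 (limma). The remaining Srxn1 probe set stayed under the floor at 291, 267 and 245.

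Superoxide dismutases turn superoxide into hydrogen peroxide, which catalase breaks down. The copper-zinc enzyme Sod1 had 32651 in replicate 1, against 32356 and 25574 in replicates 2 and 3, and the mitochondrial Sod2 had 4196, against 3285 and 2443. The extracellular Sod3 had 2712, against 1625 and 4815, so replicates 2 and 3 lay furthest apart and replicate 1 lay between. On MOE430B the Sod1 probe set above the floor read 45776 in replicate 1, against 37687 and 34127. Dimmer Sod1 probe sets were lowest in replicate 1. On MOE430A a Sod1 probe set above the floor read 1072.5, against 1125 and 1641. On MOE430B another read 774, against 1265 and 1045, and entered the test only through replicates 2 and 3. A Sod2 probe set on MOE430B, below the floor in replicate 1 and not tested, read 263, against 959 and 1419. Catalase, Cat, was uneven between its own probe sets. The brighter read 1781 in replicate 1, against 1324 and 615, with replicate 3 under the floor, and the other read 1123, against 1083 and 1058, an SD of 0.04 on the log2 scale, the smallest of the 54 member probe sets above the floor.

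Haem oxygenase breaks haem down to biliverdin, iron and carbon monoxide. The inducible Hmox1 read 4557 in replicate 1, against 3209 and 2342 in replicates 2 and 3, and the constitutive Hmox2 had 2543, against 3225 and 2220.1. Nqo1, a quinone reductase often used as a readout of NFE2L2 activity, had 4195 in replicate 1, against 1579 and 1683. Its replicates 2 and 3 lay close together and replicate 1 stood apart. Its log2 difference of 1.36 (SE 0.37) had an unadjusted p of 0.000976 and an adjusted p of 0.0959 by limma, so it was not called.

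All 4 genes of the NFE2L2 switch itself were above the floor. Nfe2l2 had 5893 in replicate 1, against 3611 and 4252 in replicates 2 and 3. Keap1, its cytosolic repressor, had 2178, against 2925 and 2799, in its brighter probe set. A second Keap1 probe set above the floor did not share that side. It read 1348 in replicate 1, against 1041 and 1551, so replicate 1 lay between (log2 difference 0.08). Nfe2l1, the related factor known for inducing proteasome genes, had 6028, against 6338 and 7870.1. The autophagy receptor Sqstm1, which can sequester KEAP1, had 19160 in replicate 1, against 17419 and 17223. Nfe2l2 and Sqstm1 were highest and Keap1 and Nfe2l1 lowest in replicate 1, with log2 differences of 0.59, 0.15, -0.39 and -0.23 and no call (adjusted p of 0.771 and above, limma). On MOE430B a Sqstm1 probe set read 1089.6 in replicate 1, against 1677 and 1376, the opposite side, but under the highest tryptophan control on each array.

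Over the whole table, 78 of 11066 MOE430A probe sets were called between replicate 1 and replicates 2 and 3, which is 0.705%, with 24 higher in replicate 1 (0.217%) and 54 lower. Of the 59 member probe sets tested, those above the mean floor on average, 3 were called, both of Gsto1 and 1 of Txnrd1, each higher in replicate 1, and the Txnrd1 one was in the test only through that array. At an unadjusted p of 0.05 in either direction, 11 of the 59 member probe sets passed, against 8.13% of all tested probe sets (limma). Of these 11, 10 were higher in replicate 1, and the share of all tested probe sets passing on that side was not computed. The 10 hold more than 1 probe set each of Gsto1, Txnrd1 and Srxn1, which are not independent. They also include the Txnrd1 probe set tested only through replicate 1. On MOE430B 0 of 10594 probe sets were called by limma (0%), with 767 at an unadjusted p under 0.05 (7.24%), and 0 of 6 members, with 1 at that p. The alternatives run also gave 0 calls on MOE430B. On that type the fit called few of the changes added to simulated data, so a count of 0 there does not speak to differences of the size seen here. On MOE430A it called only a minority of added log2 changes of 1. A member difference of that size or less without a call there does not show that the arrays were alike.

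Without a call, the order of the arrays still describes the members. Replicate 1 was above both other arrays in 28 of the 59 (47.5%), against 33.2% of all tested probe sets, and below both in 18 (30.5%), against 35.6%. Quantile normalization left both member counts at 28 and 18. It moved the background, to 35.4% of all tested probe sets highest in replicate 1 and 3768 of the 11066 lowest. Restricted, after seeing the data, to the 54 member probe sets that exceeded the floor on every array, the counts were 26 (48.1%) and 17 (31.5%), against 33.3% and 35.6% of all such probe sets. Replicate 1 was above replicate 2, scanned on the same day, in 32 members (54.2%), against 49.4% of all tested, and above replicate 3 in 37 (62.7%), against 48.1%. The median log2 difference was 0.08 over members and -0.01 over all. The roles split, as the plot of differences by gene shows: replicate 1 was highest in 5 of 6 probe sets of glutathione synthesis, 5 of 8 of thioredoxins and their reductases, and 2 of 3 of haem oxygenases and Nqo1, with 0 lowest in each, whereas it was lowest in 7 of 14 glutathione transferase and 4 of 6 glutathione peroxidase probe sets. On MOE430B replicate 1 was highest in 3 of 6 members and lowest in 2, against 35.7% and 33.9% of all tested. The fibroblast markers ran the other way, with replicate 1 lowest in 10 of 17 MOE430A probe sets and highest in 5. With quantile normalization it was lowest in 8 and highest in 5. Their summed signal was 648087 in replicate 1, against 677251 and 765796 in replicates 2 and 3. The summed epithelium markers read 3820.0 in replicate 1, against 3009.8 and 2211, and the macrophage markers 6451, against 6976 and 5848. Part of the epithelium sum is Krt19, at 1175, against 386 and 418, which was not above the floor. The 1 epithelium probe set tested on MOE430B was lowest in replicate 1 (log2 difference -1.22). Stem cell markers summed to 1971, against 3039 and 1916, and endothelium to 1975, against 2211 and 2421. Liver markers summed to 1264, against 1380 and 1020, and erythroid to 979, against 910 and 1343. Such sums are led by their brightest probe sets. The part that cell number, RNA concentration, RNA integrity, scan day or marker level has in these differences was not tested, and cell number and RNA concentration cannot be told apart.

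**Figure D2:**
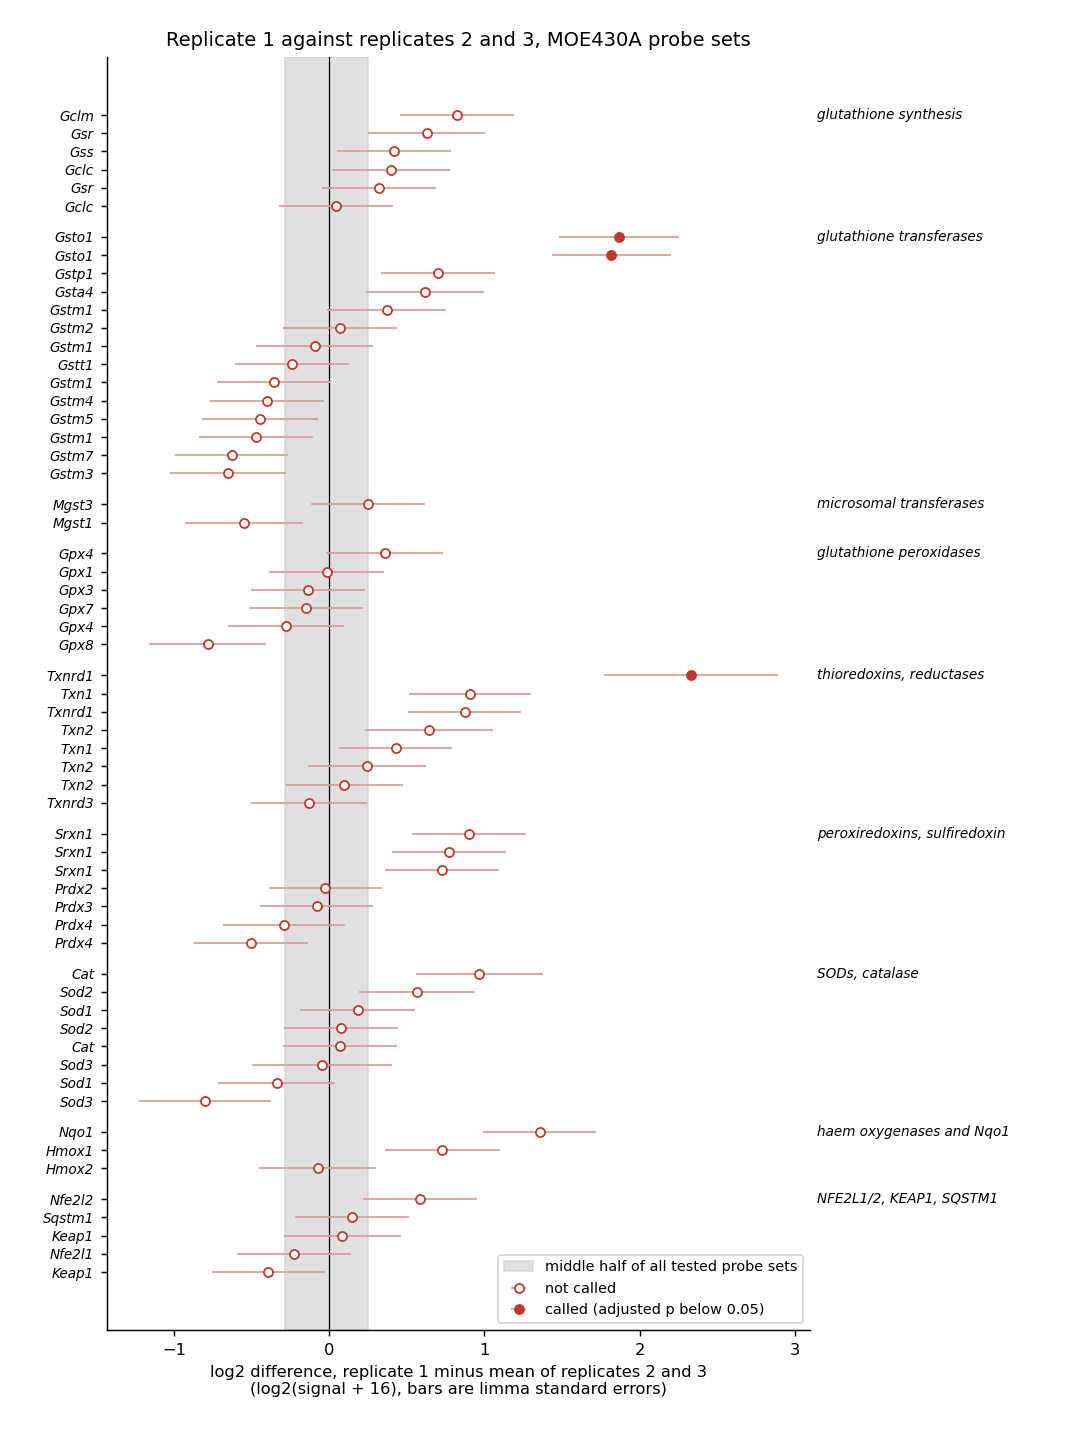
Log2 difference of each tested MOE430A member probe set, replicate 1 minus the mean of replicates 2 and 3 on log2(signal + 16), with bars for limma's standard error, grouped by role. The grey band holds the central part of all 11066 tested probe sets, -0.28 to 0.25 (quartiles). Filled points are the 3 called probe sets, of Gsto1 and Txnrd1, at 1.82, 1.87 and 2.33.

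Where a gene had several probe sets, their sides could be compared. Of 16 cases of a gene with more than 1 tested probe set on a type, 6 had all of them on the same side, and in all 6 that side was higher in replicate 1: Cat, Gsr, Gsto1, Srxn1, Txn1 and Txnrd1. Txnrd1 is among them only because its dimmer probe set entered the test through replicate 1, and the steadier Cat probe set differed by just 0.07 on the log2 scale. The same share over all genes was not computed, so the 6 of 16 have no background beside them. Probe sets of a gene share its RNA and are not independent measurements. Detection also varied within a gene, since 13 of 25 cases of a gene with several probe sets on a type had some above and some not above the floor, namely Cat, Gclc, Gstm3, Gstm7, Mgst1, Mgst3, Prdx2, Prdx4, Sod2, Sod3, Srxn1 and Txnrd1 on MOE430A and Sod1 on MOE430B. Mgst3, for example, read 3535, 2979 and 2961 in one probe set and 108, 583 and 55.1 in another, in replicates 1, 2 and 3.

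**Figure D3:**
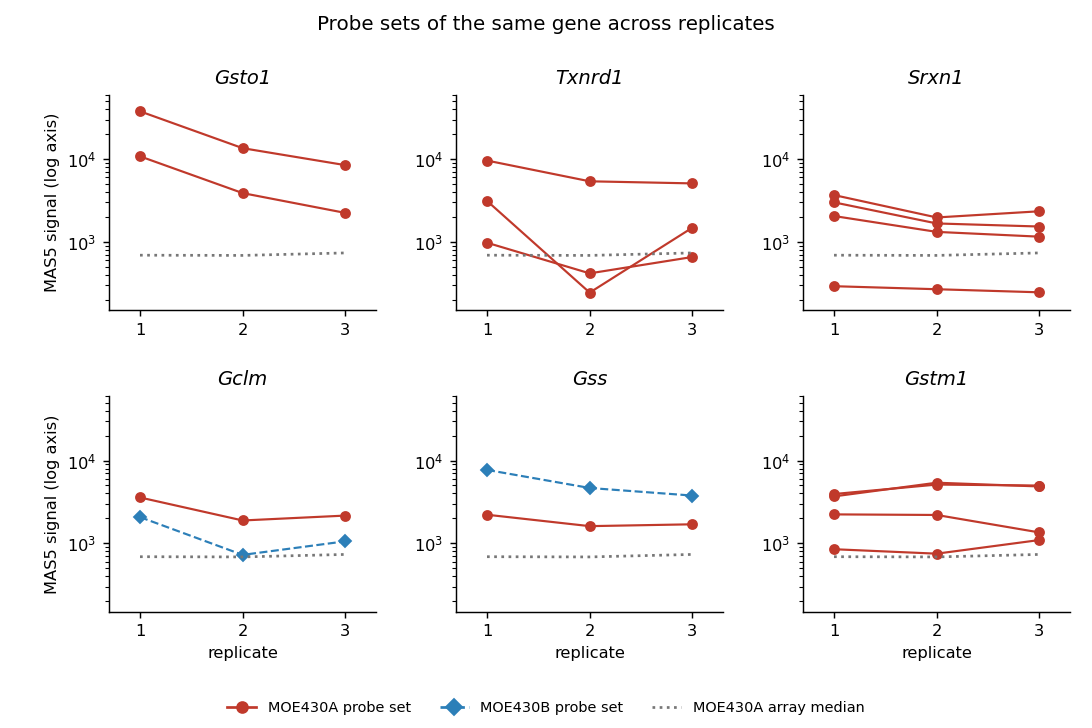
Signal (log axis) in replicates 1, 2 and 3 of every probe set of 6 genes, with MOE430A in red, MOE430B in blue and the MOE430A array median dotted. Lines join values of the same probe set and imply no order of replicates. The probe sets of Gsto1, Srxn1, Gclm and Gss are brightest in replicate 1, Txnrd1 probe sets diverge in replicate 2, and the 4 Gstm1 probe sets disagree.

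The spread between replicates is the error of these values. On MOE430A their median SD of log2 signal was 0.33 over the 54 probe sets above the floor (n = 3 arrays), against 0.24 over all 9600 above it. Between replicates 1 and 2 the median SD was 0.26 for members and 0.18 for all probe sets, and between replicates 1 and 3 it was 0.33 and 0.21. Between replicates 2 and 3, which share cell number and RNA concentration, the members' median SD was 0.20, close to 0.18 for all probe sets. Besides Cat, Prdx2 and Prdx3, the least variable were Sqstm1 (SD 0.08) and Gpx7 (0.09). The most variable were the Gsto1 probe sets (1.15 and 1.10), Nqo1 (0.78), Sod3 (0.78) and the dimmer Txn1 probe set (0.68), which read 2359 in replicate 1, against 921 and 1701. On MOE430B the 3 member probe sets above the floor had a median SD of 0.31, against 0.28 for all.

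**Figure D4:**
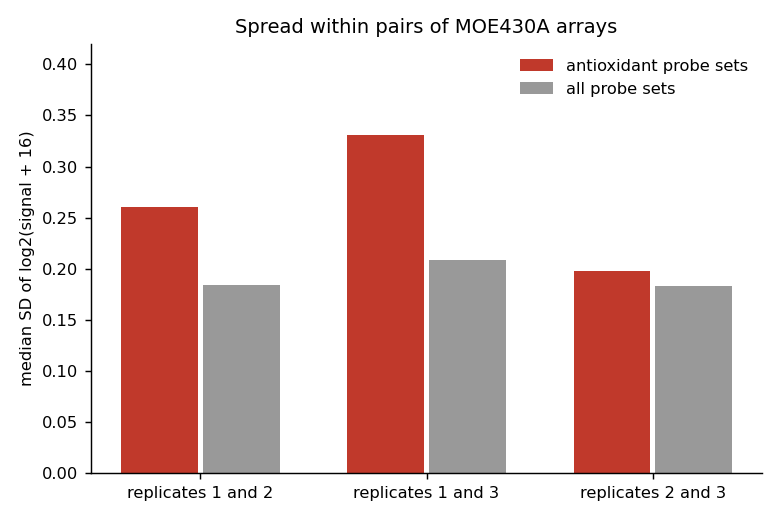
Median SD of log2(signal + 16) over the 2 MOE430A arrays of each pair, for antioxidant probe sets (red) and all probe sets (grey) above the floor on both. Members exceed all probe sets by 0.26 against 0.18 and 0.33 against 0.21 in the pairs with replicate 1, and by 0.20 against 0.18 in the pair of replicates 2 and 3.

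Genes that work with these systems but are outside the rule were followed in 6 lists. Of 62 listed genes 56 were measured, and 42 of these were above the floor, beside the 54.7% of all genes. By limma 0 of their 60 tested MOE430A probe sets were called, with 7 at an unadjusted p under 0.05 (4 higher in replicate 1), and 0 of 16 on MOE430B, with 1 at that p. On MOE430A replicate 1 was highest in 26 of the 60 (43.3%) and lowest in 23, against 33.2% and 35.6% of all tested probe sets. Among NADPH suppliers, replicate 1 was highest in 9 of 11 probe sets of 5 genes, and in 8 with quantile normalization. Pgd of the pentose phosphate pathway had 11989 in replicate 1, against 6861 and 6528 in replicates 2 and 3. Tkt had 7636, against 6650.2 and 5127, while the cytosolic isocitrate dehydrogenase Idh1 had 2800.3, against 6886 and 5240.2. Malic enzyme Me1 had 5449, against 4559.7 and 5328.

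In cystine and glutathione handling, Slc3a2, the heavy chain shared by amino acid transporters, had 7797 in replicate 1, against 9337 and 7855 in replicates 2 and 3. The glutathione conjugate exporter Abcc1 had 2446, against 1490.4 and 1816, and Cbs, of cysteine synthesis, had 1885, against 1354 and 1343. The cystine transporter Slc7a11, a known NFE2L2 target, read 263 in replicate 1, against 479 and 338, and was not above the floor. Among glutaredoxins and related genes, 13 of 15 were above it, including Txndc5 at 22141, against 25593 and 14239, Nxn at 9500.3, against 8617 and 10235, and on MOE430B Glrx5 at 33891, against 28824 and 27524.

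Of the other NFE2L2 targets, 7 of 11 were above the floor. The iron store gene Fth1 read 84766 in replicate 1, against 91172 and 93230.4 in replicates 2 and 3, the epoxide hydrolase Ephx1 had 14173, against 14218 and 14867, and Ugdh had 12609, against 7918 and 7116. Akr1b8 had 8713, against 4404 and 5677. Ugdh and Akr1b8 were highest in replicate 1, as Nqo1 was, and Fth1 and Ephx1 lowest, so the targets outside the rule did not share a side: replicate 1 was highest in 4 of 9 probe sets and lowest in 4. Of the regulators of NFE2L2, 9 of 12 were above the floor, with Park7 at 8693, against 9257 and 7036, Dpp3 at 2381, against 2341 and 2254, and Cul3, the ligase scaffold used by KEAP1, at 2082, against 2309 and 2404. Among their tested probe sets replicate 1 was lowest in 8 of 13 on MOE430A and 6 of 8 on MOE430B, against 35.6% and 33.9% of all tested. With quantile normalization the MOE430A count was 6 of 13. Several of these probe sets are of the same gene. For superoxide sources, Cyba, the membrane subunit of NADPH oxidases, had 6476 in replicate 1, against 6725 and 6509, and on MOE430B Duox1 had 2900.0, against 2374 and 2301.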

How the data were processed

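Total RNA of DR4 fibroblasts was labelled with biotin and measured on MOE430A and MOE430B arrays, 3 replicates of each, per the labels. The deposited values are signal intensities on a linear scale made with MAS5, per the submitters' processing notes. Which MAS5 version and settings were used is not given in the sources used here. Trimmed of the highest and lowest 2% of probe sets, the mean signal was 1499.9 on each MOE430A array and 1499.8 on MOE430B, so each type had been scaled separately, and no level of one was set against the other. Other deposited instrument records gave, per the file headers, station and scan day and no measurement.

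Probe sets numbered 22626 and 22511 after 64 controls were left out of each type. Probe sets were named from the platform annotation in GEO, which can be old, with symbols updated from RefSeq by gene identifier. One symbol stood for 20380 and 14661 probe sets (20351 and 14486 found in RefSeq), several for 691 and 245, and none for 1555 and 7605. Of the 97 member probe sets, 9 carry the suffix x_at and 6 s_at, which mark probes that can match other sequences. A probe set was above the floor if it exceeded its own array's median on all 3 arrays, and a gene if any of its probe sets did.

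Within each type, limma 3.58.1 in R 4.3.3 (lmFit and eBayes) set replicate 1 against replicates 2 and 3. Values were log2(signal + 16), and probe sets entered where their average log2 signal exceeded the average log2 floor. P-values were adjusted by Benjamini-Hochberg over all probe sets tested, with a threshold of 0.05. Log2 differences on this scale understate the change of dim genes, and folds are ratios of deposited signals. With 1 residual degree of freedom replicate 1 is assumed to vary as the others do, and the test leans on a prior of 25.6 (MOE430A) and 3.49 (MOE430B) degrees of freedom. A probe set can pass this filter through 1 group alone, as said above for probe sets of Gclm, Txnrd1 and Sod1. A dimmer Sod3 probe set on MOE430A (499, 558 and 1391 in replicates 1, 2 and 3) also entered only through replicates 2 and 3. So did a Txnrd2 probe set on MOE430B (709, 584 and 2220). The Sod3 one counts among the members lowest in replicate 1. The fit was tested on simulated data drawn under limma's own model. It called most of the larger changes but a minority of the smallest on MOE430A, and few changes of any size on MOE430B. On MOE430A a scan day or station block left no residual degree of freedom, and on MOE430B station coincides with the comparison.

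Members and lists were chosen with earlier results of these data known, so counts describe these arrays and no list was tested. Named genes are every member above the floor, every called member, the 5 members with the largest and smallest SD, genes with probe sets on both sides of the floor, and up to 3 listed genes outside the rule with the highest mean signal. Genes named beyond these (Idh1, Slc7a11 and Akr1b8 among them, and further probe sets of members) were chosen after their values were seen. Promoters are from RefSeq on GRCm38.p6, and motif letters were searched on both strands. Alternatives were other floors, pseudocounts, no filter, a variance trend, quantile normalization and leaving out each replicate.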

Additional observations from a re-analysis of the deposited data

How the results depend on the processing

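Of 246 alternative values computed, 226 stayed within the limits set around the main value. Of these, 156 were mean signals, with the SD of the 3 arrays as limit. Leaving out 1 array cannot move a mean beyond that limit, so such values could not fail. The same holds for the log2 differences of called probe sets without replicate 2 or 3. The tally is therefore no measure of robustness. No log2 difference of a called probe set changed direction. With the 75th percentile of each array as floor, 34 of 84 member probe sets on MOE430A (20.7% of all probe sets) and 27 of 56 listed genes outside the rule (30.4% of all genes) were above it. With a fixed signal of 200 as floor, 9 of 13 member probe sets on MOE430B were (70% of all), a share near the background. Leaving out 1 replicate at a time gave 3 to 5 member probe sets above the floor on MOE430B, with 5 without replicate 1. It gave a median SD of 0.20 to 0.33 on MOE430A and of 0.20 to 0.49 on MOE430B, both lowest without replicate 1. The median SD on MOE430B was 0.69 with no filter on low signals. The count of called MOE430A probe sets was 164 with a variance trend in eBayes, 0 with no filter and 0 with quantile normalization, and that of called members was 0 in both of the last settings, by limma. The cause was not tested. Of the 54 member genes, 30 were above the 75th percentile (30.4% of all genes), and 39 were above the highest tryptophan control (44% of all genes). That control, a bacterial probe set, read 614 to 786 on MOE430A and 1989 to 2348 on MOE430B, and each array had its own value as floor. With no filter, an alternative chosen after seeing the data, replicate 1 was highest in 40 of 84 member probe sets (47.6%), against 32.3% of all. Without replicate 2 or 3 the comparison is 1 array with 1 and has no test, and without replicate 1 it could not be made. No paired analysis was possible because replicate numbers are shared only across array types, which were scaled separately and not compared.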
